A study of Homo sapiens with 4 samples.

Results

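The genes described here are inhibitors and modulators of NF-κB signalling, most of which NF-κB is known to induce: the deubiquitinase A20 (TNFAIP3), the IκB proteins (NFKBIA, NFKBIB and NFKBIE), the ubiquitin ligase cIAP2 (BIRC3), the adaptor TRAF1, the TNF-induced genes TNFAIP2 and TNFAIP8, the A20-binding protein ABIN-1 (TNIP1) and the deubiquitinase CYLD. They were picked by gene name, with earlier results of these data known. Of the 10 genes, 8 had at least 1 probe in the probe annotation, with 28 probes among the 15246 on the array, and these 8 genes are among 9681 features (named genes and unnamed probes). BIRC3 and TNIP1 matched no probe by symbol, older name or Entrez identifier, and their expression is not analysed here. Of the 28 probes, 20 had a value on all 4 arrays, 4 on 3 arrays, 2 on 1 array and 2 on none.

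The cells were EJM, an established multiple myeloma line labelled as from bone marrow, in which a super-repressor form of IκBα is expressed under the tetracycline repressor. Both the induced and the uninduced cells carry this construct, and the labels do not say whether the line is a single clone. Induced cells had 20 µg/ml doxycycline for 1, 2, 3 or 4 days and were labelled with Cy5, and each was hybridised on a two-colour array against uninduced cells labelled with Cy3. There was 1 array per day, with no dye swap, and no array of these 4 tested doxycycline on cells without the construct.

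NF-κB transcription factors are held in the cytoplasm by IκB proteins. Signals that activate the IκB kinase mark the bound IκB for breakdown, and the freed factors enter the nucleus and switch on genes that include several of their own inhibitors, which closes a negative feedback loop. The super-repressor resists this breakdown. In multiple myeloma, a cancer of plasma cells, mutations that leave the pathway constantly active are well known, CYLD, BIRC3 and TRAF3 losses among them.

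Each value is the log ratio between an array's channels, read as log2 of induced over uninduced. The direction is likely rather than stated: it follows from the dyes in the labels and from the design, which compares treated with uninduced cells, and with the ratio the other way round all signs would flip. The base of the log is not stated either, and every fold given here assumes base 2. Over all probes the arrays of days 3 and 4 correlated at r = 0.566 and those of days 1 and 2 at r = 0.316, while pairs across these sets lay between 0.02 and 0.187. The day 1 and day 2 arrays had fewer probes with a value (11386 and 10321, against 13544 and 13872) and wider ratios (SD 0.517 and 0.569, against 0.345 and 0.380). Ratios carry no expression level, so the cell line's identity could not be checked from its markers. Plasma cell markers had a median mean of 0.35, with 9 of 10 above 0, while 56% of all features had a mean below 0. None was called, as 0.182% of features were called lower and 0.156% higher. An unadjusted p under 0.05 was found for 4 of the 10, against 12.5% of features. The largest means were JCHAIN at 1.00 ± 0.50, CD38 at 0.69 ± 0.089 and SDC1 at 0.59 ± 0.44 (SD, 4 arrays, limma adjusted p = 0.123, 0.0741 and 0.269). No marker was called of 8 for T cells or 6 for myeloid cells, where 2 and 0 had an unadjusted p under 0.05. Of 4 red cell and stromal markers HBB alone was called, higher at 0.85 ± 0.091 (SD, 4 arrays, limma adjusted p = 0.0380). It was not called without any 1 array (0.124 to 0.334). The other red cell marker measured, HBA1, had a mean on the other side of 0, at -0.14 ± 0.42 (limma adjusted p = 0.761).

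The stretch of DNA just upstream of these genes is shown because NF-κB acts through short κB sites in promoters. Sequences are from RefSeq (GRCh38.p14) and cover the 250 bases before an annotated start. They were searched on both strands for the 10-base κB consensus, the only motif searched. Capitals mark a match. The first is TNFAIP3, the member with the lowest ratios, from chr6:137867009-137867258 on the plus strand, the next is NFKBIA, the source gene of the transgene, from chr14:35404750-35404999 on the minus strand, and the last is TNFAIP2, the member with the highest ratios, from chr14:103123211-103123460 on the plus strand.
TNFAIP3: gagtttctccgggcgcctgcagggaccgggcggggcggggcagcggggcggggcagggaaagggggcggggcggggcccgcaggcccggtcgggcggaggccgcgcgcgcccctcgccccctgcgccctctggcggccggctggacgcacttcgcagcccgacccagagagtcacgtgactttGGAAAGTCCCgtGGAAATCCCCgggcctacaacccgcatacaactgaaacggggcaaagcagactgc
NFKBIA: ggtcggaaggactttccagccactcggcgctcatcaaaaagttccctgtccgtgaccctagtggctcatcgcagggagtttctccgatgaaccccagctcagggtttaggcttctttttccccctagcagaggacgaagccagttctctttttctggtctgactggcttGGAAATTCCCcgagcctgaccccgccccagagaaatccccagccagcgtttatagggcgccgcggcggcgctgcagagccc
TNFAIP2: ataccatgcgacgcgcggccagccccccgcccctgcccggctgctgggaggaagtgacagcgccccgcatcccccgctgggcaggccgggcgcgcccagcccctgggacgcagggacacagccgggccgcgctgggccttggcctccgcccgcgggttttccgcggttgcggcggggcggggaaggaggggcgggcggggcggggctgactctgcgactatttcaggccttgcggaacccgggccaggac

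The TNFAIP3 window held a pair of matches close together, GGAAAGTCCC from 67 to 58 bases before the start and GGAAATCCCC from 55 to 46. NFKBIA held GGAAATTCCC from 81 to 72 bases before its start, and no match was found in the TNFAIP2 window. Other starts with a match were those of NFKBIB (GGGAATTTCCC, from 28 to 18), CYLD (GGAAAGTCCC, from 189 to 180), TNIP1 (GGGACTTTCC, from 42 to 33) and BIRC3 (GGAAATCCCC, from 199 to 190, and GGAGTTCCCC, from 135 to 126). No TRAF1 or TNFAIP8 start had a match, and NFKBIE was not in the promoter table. In all, 6 of 17 annotated starts of the members held the consensus, or 6 of 9 genes, against 5.21% of the 35116 starts and 6.28% of the 27305 genes in the table. Most members are genes that NF-κB is known to induce, so a share above that of all genes is not separate from their choice. BIRC3 and TNIP1, counted here, had no probe. A match describes the letters of the window and is not evidence that the site is used in EJM cells.

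The first comparison asked whether a member's ratio, averaged over the days, departed from 0. TNFAIP3, which removes and edits the ubiquitin chains that carry NF-κB signals and is a classic NF-κB target, was the only member called. Its average over 6 probes was -1.07, -1.52, -1.58 and -1.70 on days 1 to 4. It was thus below 0 on every array and lowest on the last, at 2.09-fold lower on day 1 and 3.26-fold lower on day 4. The mean was -1.47 ± 0.28 (SD, 4 arrays), with a 95% interval of -1.80 to -1.14 and a limma adjusted p of 0.0178. In RNA from a whole culture, a lower level per cell and fewer expressing cells cannot be told apart. The gene ranked 9 from the lowest of 7713 features and 3 from the lowest of 4212 named genes. Of all features tested, 0.182% were called lower and 0.156% higher.

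All 6 TNFAIP3 probes were below 0 on all 4 arrays, as were 13.2% of the 9242 probes with 4 values. Probe 28986_1 read -1.069, -2.102, -2.247 and -2.337 on days 1 to 4. Probe 19267_1 read -0.926, -1.772, -1.788 and -1.952. Probe 34761_1 read -1.250, -1.585, -1.645 and -1.894. These 3 probes went lower with each day. Probe 28987_1 read -1.141, -1.756, -1.935 and -1.717, with its lowest value on day 3. Probe 16398_1 read -0.701, -0.658, -1.319 and -1.397, about level over the first days and lower on the last. Probe 35299_1 read -1.305, -1.254, -0.564 and -0.924, and was the only TNFAIP3 probe less reduced on days 3 and 4 than on days 1 and 2.

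The probes were thus alike in direction and differed in size and in course. Probe means ran from -1.94 (28986_1) to -1.01 (35299_1). Their SD of 0.373 exceeded that of 93.6% of the 420 genes with at least 4 probes, whose median was 0.212. Fitted one by one over 11669 probes, 4 of the 6 passed, with limma adjusted p from 0.0170 (34761_1) to 0.0277, while 16398_1 and 35299_1 had 0.0689 and 0.0595. Of all probes, 0.231% were called lower. All 6 probes are annotated to the same RefSeq transcript, so they are not replicates of the experiment. Their positions along it are not known here.

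**Figure D1:**
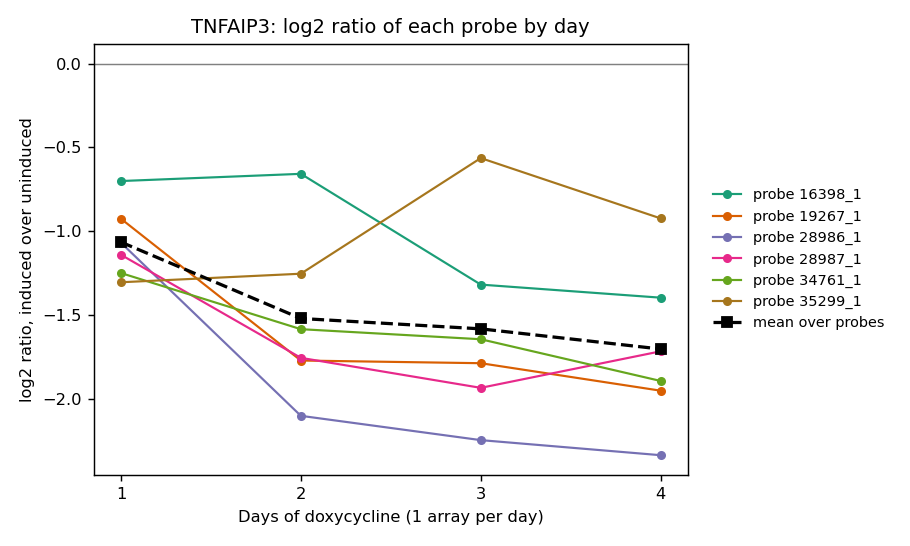
Log2 ratio of induced over uninduced cells (vertical axis) by days of doxycycline (horizontal axis) for the 6 TNFAIP3 probes (coloured lines) and their mean (black dashes). Every point lies below 0, and 5 of 6 probes are lower on days 3 and 4 than on days 1 and 2, with 35299_1 the exception.

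The TNFAIP3 call depended on the arrays and on which probes were used, while its direction was the same in each alternative run. Without the day 2, day 3 or day 4 array the means were -1.45, -1.43 and -1.39 (limma adjusted p = 0.116, 0.211 and 0.169), and with arrays scaled to the same spread the mean was -1.53 (limma adjusted p = 0.0601). One alternative kept the single probe with the fewest missing values. All 6 probes had 4 values, so the first by identifier (16398_1) was taken, which is not a better measured probe. Its mean was -1.02 (limma adjusted p = 0.0898). With the median over probes the mean was -1.57 and passed (limma adjusted p = 0.0174). With days 1 and 2 alone the mean was -1.29 (limma adjusted p = 0.211). Leaving out any 1 probe left a mean between -1.56 and -1.37.

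NFKBIA encodes IκBα, the inhibitor that NF-κB resynthesises within its feedback loop. Its probes are given one by one, because the transgene is a form of this gene and whether a probe also detects transgene RNA is not known here. Probe 15866_1 read -1.036, -1.266, -0.496 and -0.841 on days 1 to 4. It was below 0 on every array, with a mean of -0.91 ± 0.33 (SD, 4 arrays; limma adjusted p = 0.0732 over all probes). Only 0.45% of probes had a lower mean, but it did not pass.

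The other NFKBIA probes changed sign between the early and the late arrays, in opposite ways. Probe 28424_1 went from -0.430 and -0.290 on the first 2 days to 0.380 and 0.489 on the last 2, a sign pattern that 12.9% of all probes had. Probe 34886_1 read 0.487, 0.789, -0.041 and -0.113. Probe 24499_1 read 0.088, 0.500, -0.328 and -0.270. The last pair shared the opposite pattern, which 7.2% of probes had. Probe 24829_1 had a value on day 3 alone, of 0.009.

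The NFKBIA average therefore hides divergent probes. It read -0.22, -0.067, -0.095 and -0.18 on days 1 to 4, with a mean of -0.14 ± 0.073 (SD, 4 arrays; limma adjusted p = 0.610; 95% interval -0.40 to 0.12). The SD between its probe means was 0.523, larger than in 98.1% of the 420 genes with at least 4 probes. Without probe 15866_1 the average was 0.11 and without 34886_1 it was -0.28, so its sign rests on 15866_1. All 5 probes are annotated to the same RefSeq transcript.

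**Figure D2:**
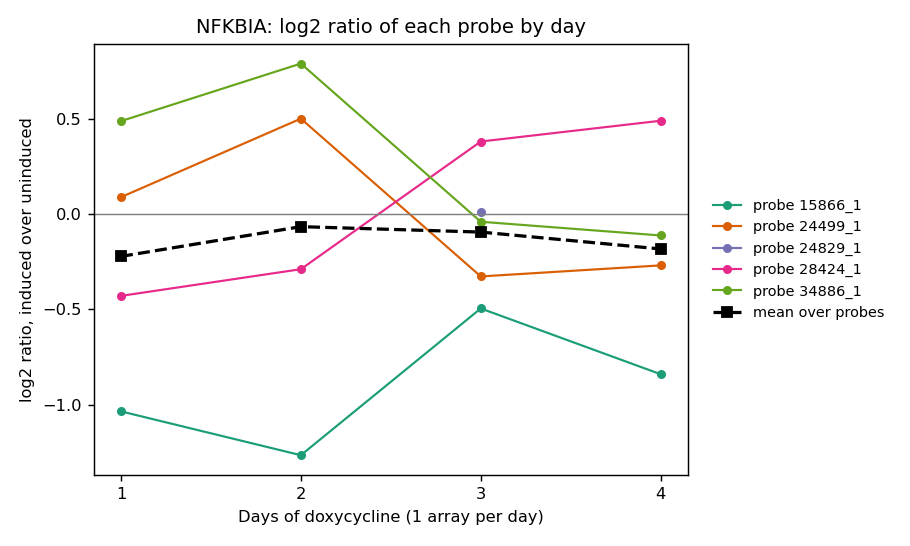
Log2 ratio of induced over uninduced cells (vertical axis) by days of doxycycline (horizontal axis) for each NFKBIA probe (coloured; 24829_1 has a single value) and their mean (black dashes). Probe 15866_1 lies below 0 throughout, 28424_1 crosses from below to above 0, and 34886_1 and 24499_1 cross from above to below, so the mean stays near 0.

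NFKBIB encodes IκBβ, an inhibitor with a slower part in the feedback. Its average was -0.43, -1.32, -0.0155 and -0.0255 on days 1 to 4. The value of day 2 rests on probe 37908_1, which read -0.120, -2.111, -0.342 and -0.380, while probe 35494_1 read -0.747, -0.522, 0.311 and 0.329. The probes thus shared a sign on days 1 and 2 and differed in sign on days 3 and 4. The mean of -0.45 ± 0.61 (SD, 4 arrays) did not pass (limma adjusted p = 0.461; 95% interval -0.98 to 0.083), and without the day 2 array it was -0.16.

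NFKBIE encodes IκBε, an inhibitor induced by NF-κB. It was measured by 1 of its 2 probes (35310_1), which read -0.245, -0.977, -0.154 and 0.313 on days 1 to 4. It was lowest on day 2 and above 0 on day 4. The mean of -0.27 ± 0.53 (SD, 4 arrays) did not pass (limma adjusted p = 0.609; 95% interval -0.75 to 0.21), and it was -0.029 without the day 2 array and -0.46 without that of day 4.

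TRAF1 is an adaptor of TNF receptor family signalling. Its average was -0.32, -0.43, -0.072 and 0.20 on days 1 to 4. Probe 15921_1 read -0.635, -0.960, -0.111 and -0.066, and probe 34621_1 read -0.561, -0.234, -0.247 and 0.089. Probe 30161_1 stayed near 0, between -0.086 and 0.228. The day 4 average includes probe 26356_1 (0.693), which had no value on the other days, and over the 3 probes with all values it was 0.040. The mean of -0.15 ± 0.28 (SD, 4 arrays) did not pass (limma adjusted p = 0.665; 95% interval -0.49 to 0.18), and with days 3 and 4 alone it was 0.066. Without the day 1, day 2 or day 4 array it was -0.099, -0.064 and -0.27.

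TNFAIP2, a TNF-induced protein related to exocyst subunits, was the only member with a mean above 0. Its single probe (25980_1) had no value on day 2 and read 0.636, 0.615 and 0.830 on days 1, 3 and 4. All 3 measured arrays were above 0. The mean was 0.69 ± 0.12 (SD, 3 arrays), or 1.62-fold higher, and did not pass (limma adjusted p = 0.151; 95% interval 0.36 to 1.03). It ranked 28 from the highest of 4212 named genes. With array weights it was called higher (0.69, limma adjusted p = 0.0208), as were 1.89% of features, and with days 3 and 4 alone (0.72, limma adjusted p = 0.0162), as were 3.46%.

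TNFAIP8, a regulator of cell death named for its induction by TNF, had 6 probes with an average of -0.28, -0.27, 0.078 and 0.070 on days 1 to 4. The probe values lay between -0.733 and 0.041 on day 1 and between -0.187 and 0.411 on day 4. All 6 probes were higher on days 3 and 4 than on days 1 and 2. Part of that shift came with a change of probes: over the 3 probes with all values the average was -0.041, -0.18, 0.035 and 0.23. The mean of -0.10 ± 0.20 (SD, 4 arrays) did not pass (limma adjusted p = 0.756; 95% interval -0.40 to 0.19), and over those 3 probes it was 0.011. Without the day 1, day 2, day 3 or day 4 array it was -0.042, -0.044, -0.16 and -0.16.

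CYLD removes ubiquitin chains from signalling complexes and is lost in some myelomas. Its single probe (27461_1) read 0.377, -0.818, -0.156 and -0.260 on days 1 to 4. Day 1 was above 0 and day 2 was the lowest. The mean of -0.21 ± 0.49 (SD, 4 arrays) did not pass (limma adjusted p = 0.659; 95% interval -0.66 to 0.24). It was -0.41 without the day 1 array and -0.013 without that of day 2.

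**Figure D3:**
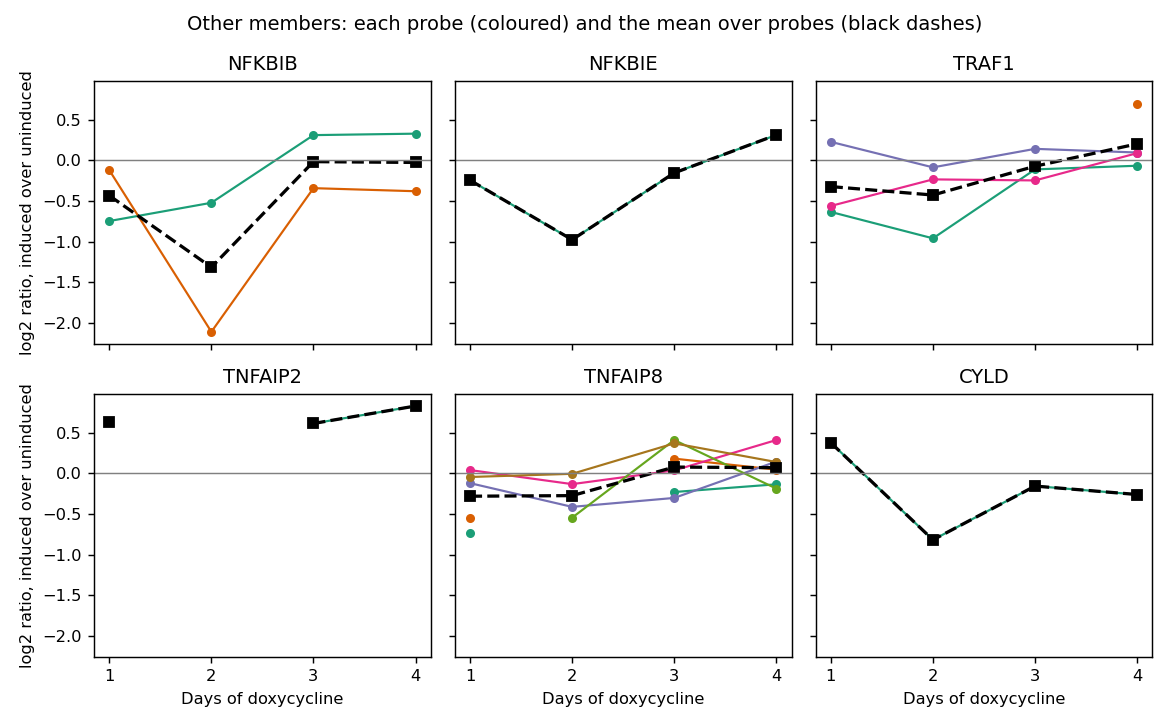
Log2 ratio of induced over uninduced cells (vertical axis) by days of doxycycline (horizontal axis) for the other 6 members, with each probe in colour and the mean over probes in black dashes. NFKBIB, NFKBIE, TRAF1 and CYLD have their lowest mean on day 2, TNFAIP2 lies above 0 on its 3 measured days, and a gap in a line is a missing value.

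Across the members, 7 of 8 had a mean below 0, as had 56% of all features, with a median of -0.18 against -0.032 over all features. In the fit over all features 1 of 8 was called lower and 0 higher, against 0.182% and 0.156% of features. A further 1, TNFAIP2, had an unadjusted p under 0.05, which 962 of all 7713 features (12.5%) had. Of the 7 members with values on all arrays, 3 (TNFAIP3, NFKBIA and NFKBIB) had averages below 0 on every array, as had 13.4% of features. Among probes with 4 values this held for 6 of 6 of TNFAIP3, but for 1 of 4 of NFKBIA and 1 of 2 of NFKBIB. TNFAIP3 was the only member at least 2-fold lower on days 1, 3 and 4 (2.3%, 0.385% and 0.479% of features), and on day 2 NFKBIB joined it (3.35%). On day 2 all 7 measured members were below 0, as were 58.2% of features, and 4 of 7 had their lowest value that day, as had 33.5% of features. The day 2 array had the widest ratios (SD 0.569) and the fewest values, and NFKBIA probes ran from -1.266 to 0.789 on it. The median over members was -0.26, -0.82, -0.084 and 0.022 on days 1 to 4, against -0.063, -0.081, 0.006 and 0.002 over all features. Only TNFAIP3 and TNFAIP2 had 95% intervals (not adjusted for the number of features) that left out 0. With 4 arrays the lower ends of the other 6 intervals lay between -0.979 (NFKBIB) and -0.396 (TNFAIP8), so reductions of that size were within the error.

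**Figure D4:**
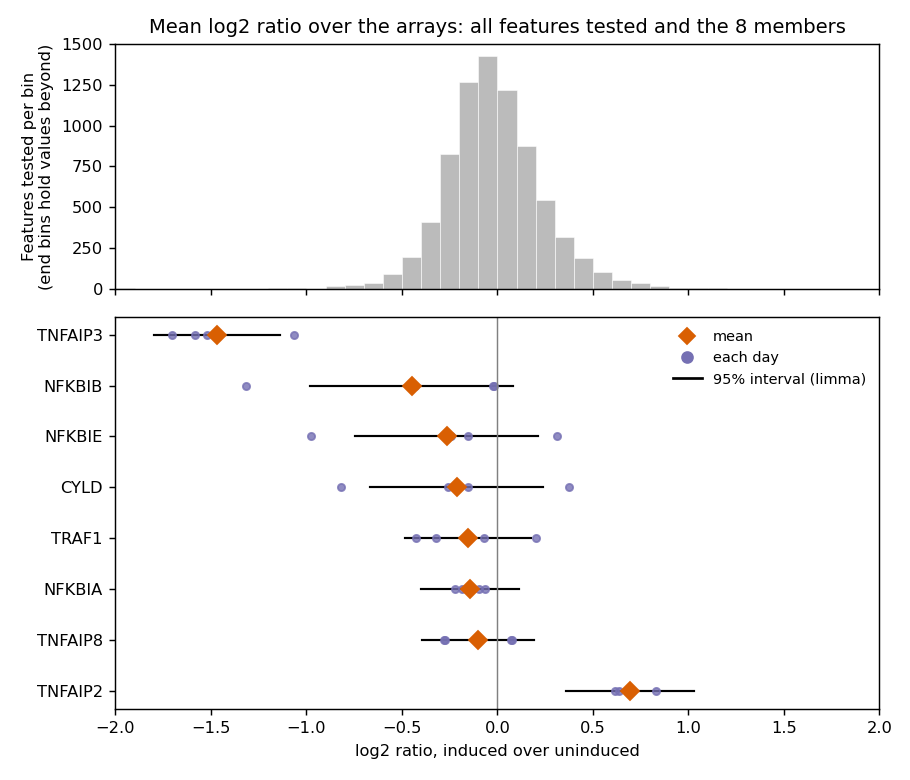
Top, number of features tested by mean log2 ratio over the arrays, with values beyond the axis counted in the end bins. Bottom, for each of the 8 members, the mean (diamond), the value of each day (circles) and the 95% interval of limma (line), showing TNFAIP3 at -1.47 far on the lower side and TNFAIP2 at 0.69 on the higher side.

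The second comparison asked whether the ratios changed over the 4 days, with a line fitted through the log2 ratios by day. No member passed, and 0 of 6427 features did with limma (963 at an unadjusted p under 0.05, smallest adjusted p = 0.304). TNFAIP3 had a slope of -0.20 ± 0.088 log2 per day (SE; limma adjusted p = 0.364; 95% interval -0.42 to 0.021). Its probes had slopes from -0.39 (28986_1) to 0.18 (35299_1), 5 below 0 and 1 above. TRAF1 had a slope of 0.19 ± 0.09 (limma adjusted p = 0.369), NFKBIB of 0.25 ± 0.19 (0.522) and NFKBIE of 0.25 ± 0.16 (0.465). That of TNFAIP8 was 0.14 ± 0.085 (limma adjusted p = 0.441), of CYLD -0.12 ± 0.17 (0.731) and of NFKBIA 0.0089 ± 0.083 (0.968). Without the day 1 array the slope was -0.091 for TNFAIP3, 0.65 for NFKBIB, 0.65 for NFKBIE, 0.32 for TRAF1, 0.28 for CYLD and -0.059 for NFKBIA. Without that of day 2 it was 0.15 for NFKBIB, 0.17 for NFKBIE, -0.22 for CYLD and 0.020 for NFKBIA. Without that of day 4 it was 0.046 for NFKBIE, 0.13 for TRAF1, -0.27 for CYLD and 0.064 for NFKBIA, and without that of day 3 it was 0.0028 for NFKBIA. TNFAIP3 thus had its lowest value late, while the other 6 members with 4 values had a higher average on days 3 and 4 than on days 1 and 2, by as little as 0.005 for NFKBIA and 0.0125 for CYLD. The same was true of 55.6% of all features. Among the members' probes with 4 values it held for 13 of 20 (1 of 6 for TNFAIP3 and 12 of 14 for the others), against 53.4% of all probes. The array pairs also differed in spread and in missing values, and the part of that in these differences was not tested.

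The members were set beside other genes of the pathway. Of 18 measured negative regulators outside the list, 13 had means below 0 and 0 were called by limma (1 at an unadjusted p under 0.05), with a median of -0.073. Here and in the lists that follow, such unadjusted counts stand against 12.5% of all features. Counts of means below 0 stand against 56%, and calls against 0.182% lower and 0.156% higher. TNIP2 (ABIN-2, an A20-binding protein related to TNIP1) read -0.436, -0.963, -0.474 and -0.220 on days 1 to 4, with a mean of -0.52 ± 0.31 (SD, 4 arrays; limma adjusted p = 0.243). BCL3, an atypical IκB protein, had a mean of -0.27 ± 0.15 and TNFAIP8L2, a relative of TNFAIP8, of -0.24 ± 0.54 (3 arrays), or -0.55 without the day 1 array, -0.13 without day 3 and -0.040 without day 4. A further list held genes of the IAP, TRAF, TNFAIP8 and IκB families, with TNFAIP1 and TNFAIP6, which share only the TNFAIP name. Of its 15 measured genes 8 were below 0, with a median of -0.037 and 0 called (1 at an unadjusted p under 0.05). They include NFKB2, whose precursor acts as an IκB, at -0.88 ± 0.43 (limma adjusted p = 0.125), TRAF5 at 0.47 ± 1.01 (SD, 4 arrays), which rests on a day 2 value of 1.978 (-0.031 without it), and TRAF6 at 0.33 ± 0.40, or 0.17 without the day 1 array.

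Of the 5 NF-κB subunits 3 were below 0 and 0 were called by limma (2 at an unadjusted p under 0.05), with NFKB2, RELB at -0.73 ± 0.21 and RELA at 0.50 ± 0.68, which without its day 2 value of 1.44 was 0.18. Of 16 IκB kinase genes and upstream adaptors 10 were below 0, with a median of -0.034 and 0 called (2 at an unadjusted p under 0.05). FBXW11, part of the ubiquitin ligase that marks IκB for breakdown, had a mean of -0.64 ± 0.52 and values of -1.182, -0.979, -0.211 and -0.170 on days 1 to 4. Of 37 other NF-κB target genes 28 were below 0, with a median of -0.13 and 6 at an unadjusted p under 0.05, and 1 was called, the ubiquitin-like gene UBD at -1.11 ± 0.14 (SD, 4 arrays; limma adjusted p = 0.0288), which did not pass without any 1 of the arrays (0.0977 to 0.229). FAS followed at -0.81 ± 0.26 and did not pass, and the chemokine CCL3 had a mean of 0.69 ± 0.10 (limma adjusted p = 0.0741), on the same side as TNFAIP2. With array weights, UBD, FAS, CCL3, NFKB2 and RELB passed (limma adjusted p from 0.00259 to 0.0221), as did 291 of 7713 features. With days 3 and 4 alone these genes passed again (limma adjusted p from 0.00486 to 0.0320), as did 569 of 8650 features. Of the other genes named from the lists, TNFAIP8L2 passed with days 3 and 4 alone (limma adjusted p = 0.0352) and the rest in neither fit.

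The named genes whose 4 values lay nearest to those of TNFAIP3, by the root mean square difference over the 4 arrays among 3768 genes, were DPYSL2 (0.376), IL2RG (0.432), UBD (0.456), HLA-DRA (0.490) and ZYG11B (0.542). Even the nearest was less reduced than TNFAIP3 on days 2, 3 and 4: DPYSL2 read -1.131, -1.063, -1.298 and -1.184. HLA-DRA, a class II antigen-presenting chain, read -0.535, -0.806, -1.706 and -1.312, lower than TNFAIP3 on day 3 alone. The member with the highest mean among those with 4 values was TNFAIP8, and its nearest genes were ATM and GCC2 (0.024 each), TFDP1 and TNFRSF10B (0.039 each) and BACH2 (0.042). Values near 0 are common, so such small differences describe a crowded part of the data.

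**Figure D5:**
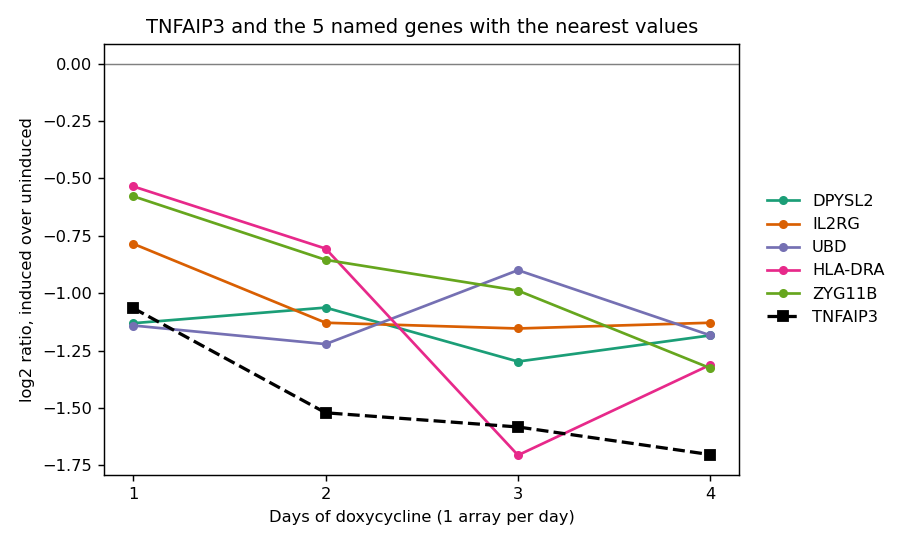
Log2 ratio of induced over uninduced cells (vertical axis) by days of doxycycline (horizontal axis) for TNFAIP3 (black dashes) and the 5 named genes nearest to it (colours). DPYSL2 and TNFAIP3 are close on day 1 and TNFAIP3 is the lowest of the 6 on days 2 and 4.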

How the data were processed

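Two-colour cDNA arrays of induced (Cy5) against uninduced (Cy3) EJM cells were used, 1 per day. The deposited values are log ratios, taken as log2 ratios of channel 2 over channel 1. How they were background-corrected, normalized and filtered was not given in the sources used here. Spot intensities were not analysed. Symbols came from the platform annotation and were updated by Entrez identifier with RefSeq (10128 of 10169 probes with 1 symbol; 4 had several and 5073 none). Probes of a gene were averaged per array. The mean against 0 (at least 3 arrays, 7713 features) and the slope on day (4 arrays, 6427 features) were fitted with limma 3.58.1 in R 4.3.3 (two-sided, Benjamini-Hochberg over all features, threshold 0.05). On simulated data with 7713 features, 87 of 100 means of 4-fold and 60 of 100 of 2-fold were recovered, with 4 false calls. For the slope, 111 of 160 changes of 2-fold per day were recovered among 6427 features, with 2 false calls. The simulated arrays were independent, with the same spread for a feature on every day. The real arrays differ in spread and correlate in pairs, so these rates may not hold for them.

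The members and lists were chosen with earlier results of these data known. Genes named beside the members were those called and the 3 largest means of each pathway list, and the 5 nearest genes of the lowest and highest member. Of the cell type markers, only plasma cell and red cell genes were named. The arrays are different days and the labels name no separate cultures, so p-values reflect the spread among 4 arrays alone, which may be technical. The uninduced reference has the same description on every array. If a single uninduced sample served all of them, its error is common to all ratios and is not in that spread. A dye bias, an effect of doxycycline itself and time in culture cannot be told apart from induction. The alternatives concerned array scale, centring and weights, missing values, the use of probes, symbols and leaving out arrays.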

Additional observations from a re-analysis of the deposited data

Results flagged for a closer look

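Of 27 sets of 4 daily values (7 genes and 20 probes), 1 held a value far from the others: NFKBIB probe 37908_1, at -2.111 on day 2, where its values of days 1, 3 and 4 ran from -0.380 to -0.120. The gap to the nearest value was 0.869 of the whole range, above Dixon's critical value. Chance marks about 1 in 20 such sets.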

How the results depend on the processing

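The mean comparison called 26 features. It called 42 with values on all 4 arrays required, 3 with arrays scaled to the same spread, 291 with array weights, 55 with probes one by one, 1 with days 1 and 2 alone, 569 with days 3 and 4 alone, and 3 to 5 when an array was left out. The cause was not tested, beyond the fewer arrays or other features that these fits hold. The slope called 0 under every alternative run.

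The TNFAIP3 mean stayed below 0 in all alternatives, from -1.64 with days 3 and 4 alone (limma adjusted p = 0.000649) to -1.02. If the deposited values were natural logs, chosen as an alternative after seeing the data, its fold would be 4.34 in place of 2.77. Member means that changed sign, none called, were NFKBIE (0.0795), TRAF1 (0.0656) and TNFAIP8 (0.0742) with days 3 and 4 alone, and TNFAIP8 with array weights (0.022) and with only probes with all 4 values (0.0108). Slopes that changed sign were those of NFKBIA with arrays scaled (-0.0172), centred (-0.0097), with the median over probes (-0.0208) and without day 1 (-0.0585), and of CYLD without day 1 (0.279). Over the fits that each left out an array, the slope ran from -0.0585 to 0.0638 for NFKBIA and from -0.2665 to 0.279 for CYLD.

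No paired analysis was possible because there is 1 group of arrays and each array already sets induced against uninduced cells. Signal over background limits the ratios of dim spots, and without intensities this could not be examined.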

Other observations

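Over all measured genes in the promoter table, the 321 with the κB consensus in the 250 bases before a start had a median mean log2 ratio of -0.039, with 59.5% below 0, and the 3115 without it had -0.032, with 56.6% below 0. Of the former 2 were called lower and 0 higher in the limma fit, and of the latter 1 was called lower and 4 higher. TNFAIP3 is itself 1 of the 2 called lower, so that count is not separate from its result above. These are descriptions of short windows, with no test of a difference.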
